A study of Glycine max with 72 samples.

Results

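The genes described here are the 4 soybean genes of the phytic acid pathway, other than MIPS1, that the study of these seeds listed as differentially expressed. They are 4 of the 56044 genes in each count table. Glyma.01G016700 and Glyma.09G206100 were annotated there as ITPK1, with the Arabidopsis homolog AT5G16760, and Glyma.11G218500 and Glyma.18G038800 as ITPK4, with the homolog AT2G43980. They were listed because of their differences in *1mlpa* or *3mlpa* in these same libraries, so their differences in those 2 lines, and how these vary with the stage and between the 2 lines, are given below as a description and are not independent evidence. In short, the ITPK4 genes were higher in dry seeds of *1mlpa* and *3mlpa* than in those of 1MWT and 3MWT. The libraries did not overlap, and 3 of the 4 differences passed the test. Of all genes tested in dry seeds, 8.37% in *1mlpa* and 3.95% in *3mlpa* passed it, and 15.2% and 10.6% were higher without overlap. Both differences that passed in *3mlpa* no longer did so with library totals alone, or with only the dry seed libraries fitted. That of Glyma.11G218500 in *3mlpa* passed in 3 of 18 refits without 1 library. The ITPK1 gene Glyma.01G016700 was higher in *1mlpa* than in 1MWT after radicle emergence, and neither kind of gene passed the test in *2mlpa*. Glyma.01G016700 had next to no counts in any line of the MRP subset. In dry seeds of the normal lines of that subset, Glyma.18G038800 overlapped its levels in *1mlpa*, a comparison that was not tested.

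Phytic acid is the main phosphorus store of seeds, a myo-inositol ring that carries a phosphate on every carbon. MIPS makes the inositol phosphate at the start of the pathway, and kinases add phosphates to the ring step by step. MRP transporters of the ABC family move the product into the vacuole. The ITPK kinases act at the middle steps, on inositol phosphates that carry part of the phosphates. In Arabidopsis, ITPK1 also acts on phytic acid itself to form a more highly phosphorylated product, and loss of ITPK4 lowers phytic acid in seeds.

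Counts of read pairs per gene were available for 72 mRNA libraries from 8 lines at 3 stages with 3 replicates of 10 seeds each. Stage 1 is the mature dry seed, stage 2 the seed imbibed for 8 h, and stage 3 the seed at radicle emergence. Seed coats and radicles were removed at stages 2 and 3 but not at stage 1, so stage and sampled tissue cannot be told apart. The Mips subset, from Essex × V99-5089, holds *1mlpa* (*mips1*/MRP-L/MRP-N) and 1MWT (no mutation). The Mips-MRP subset, from CX-1834 × V99-5089, holds *3mlpa* (*mips1*/*mrp-l*/*mrp-n*) and 3MWT (no mutation). The MRP subset, from the same parents, holds *2mlpa* (MIPS1/*mrp-l*/*mrp-n*) and 3 lines of normal phytic acid, 2MWT (no mutation), 2MWT-L (*mrp-n* alone) and 2MWT-N (*mrp-l* alone). Each genotype is 1 line, so a mutation and whatever else differs between sister lines cannot be told apart. In the Mips subset the short sample names may also be read as the 2 parental lines, so the genotype label alone decided which libraries count as *1mlpa* and which as 1MWT.

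In the Wm82.a2.v1 genome, Glyma.01G016700 lies on chromosome 1 at 1599357 to 1600466, on the minus strand with 2 exons. Glyma.09G206100 lies on chromosome 9 at 43012402 to 43014803, on the plus strand with 3 exons. Glyma.11G218500 lies on chromosome 11 at 31312270 to 31315576, on the plus strand with 2 exons, and 2.00 Mb separate it from Glyma.11G238800, the gene mutated in *1mlpa* and *3mlpa*, which the study calls MIPS1 and in places MIPS2. Glyma.18G038800 lies on chromosome 18 at 3127926 to 3131916, on the minus strand with 2 exons. The last of these overlaps Glyma.18G038700, on the opposite strand, over 1103 bases, and the counting did not use strand. That neighbour had a median of 4 counts and at most 24 counts per library. The exon lengths used for levels per kb were 1074, 1662, 1789 and 2710 bases in the same order.

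Of the 72 libraries, 71 held 20295984 to 39759526 counts, with a median of 28412327. Replicate 1 of 2MWT-N at stage 2 held 12679 counts and none from the 4 genes. It stayed in the fits but is left out of the values below. Levels are given as CPM, the usual unit of counts relative to library size, scaled by edgeR's TMM factors within each subset. These factors lay between 0.32 and 0.72 in dry seeds, between 0.96 and 1.49 at stage 2 and between 1.42 and 1.73 at stage 3, so comparisons between stages depend on the scaling far more than comparisons within a stage. The spread of factors was widest in dry seeds of *3mlpa*, from 0.32 to 0.72. The summed level of 4 seed storage genes named by the study was 78.7 to 10394 CPM of the library total in dry seeds, 140 to 6350 CPM at stage 2 and 77.9 to 735 CPM at stage 3. The labels describe the replicates as biological, each a separate sample of seeds, and the p-values measure the spread between these samples.

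Per kb of exon, the 4 genes were of moderate abundance, and the ITPK4 gene on chromosome 18 was the lowest except where Glyma.01G016700 was near 0. Its mean over the Mips libraries was 1.14 CPM per kb, at the 51.3 percentile of the 48229 genes with any count there. Glyma.01G016700 was the highest of the 4 in that subset, at 8.38 CPM per kb and the 79.5 percentile, while Glyma.11G218500 (6.49 CPM per kb) and Glyma.09G206100 (6.32 CPM per kb) lay close together. In dry seeds of 1MWT the order per kb was Glyma.01G016700 (14.7), Glyma.09G206100 (7.63), Glyma.11G218500 (6.25) and Glyma.18G038800 (1.23). In dry seeds of *1mlpa* Glyma.11G218500 stood first at 18.8 CPM per kb, next to Glyma.01G016700 at 18.1 and Glyma.09G206100 at 15.1, 3 levels that did not differ beyond their spread. In dry seeds of *3mlpa* Glyma.11G218500 was again first, at 16.3 CPM per kb, against 11.2 for Glyma.01G016700. At stage 3 the ITPK1 gene Glyma.09G206100 was first in 1MWT, 3MWT and *3mlpa* (3.14, 3.53 and 2.00 CPM per kb), and Glyma.01G016700 was first only in *1mlpa*, at 5.45 CPM per kb.

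**Figure D1:**
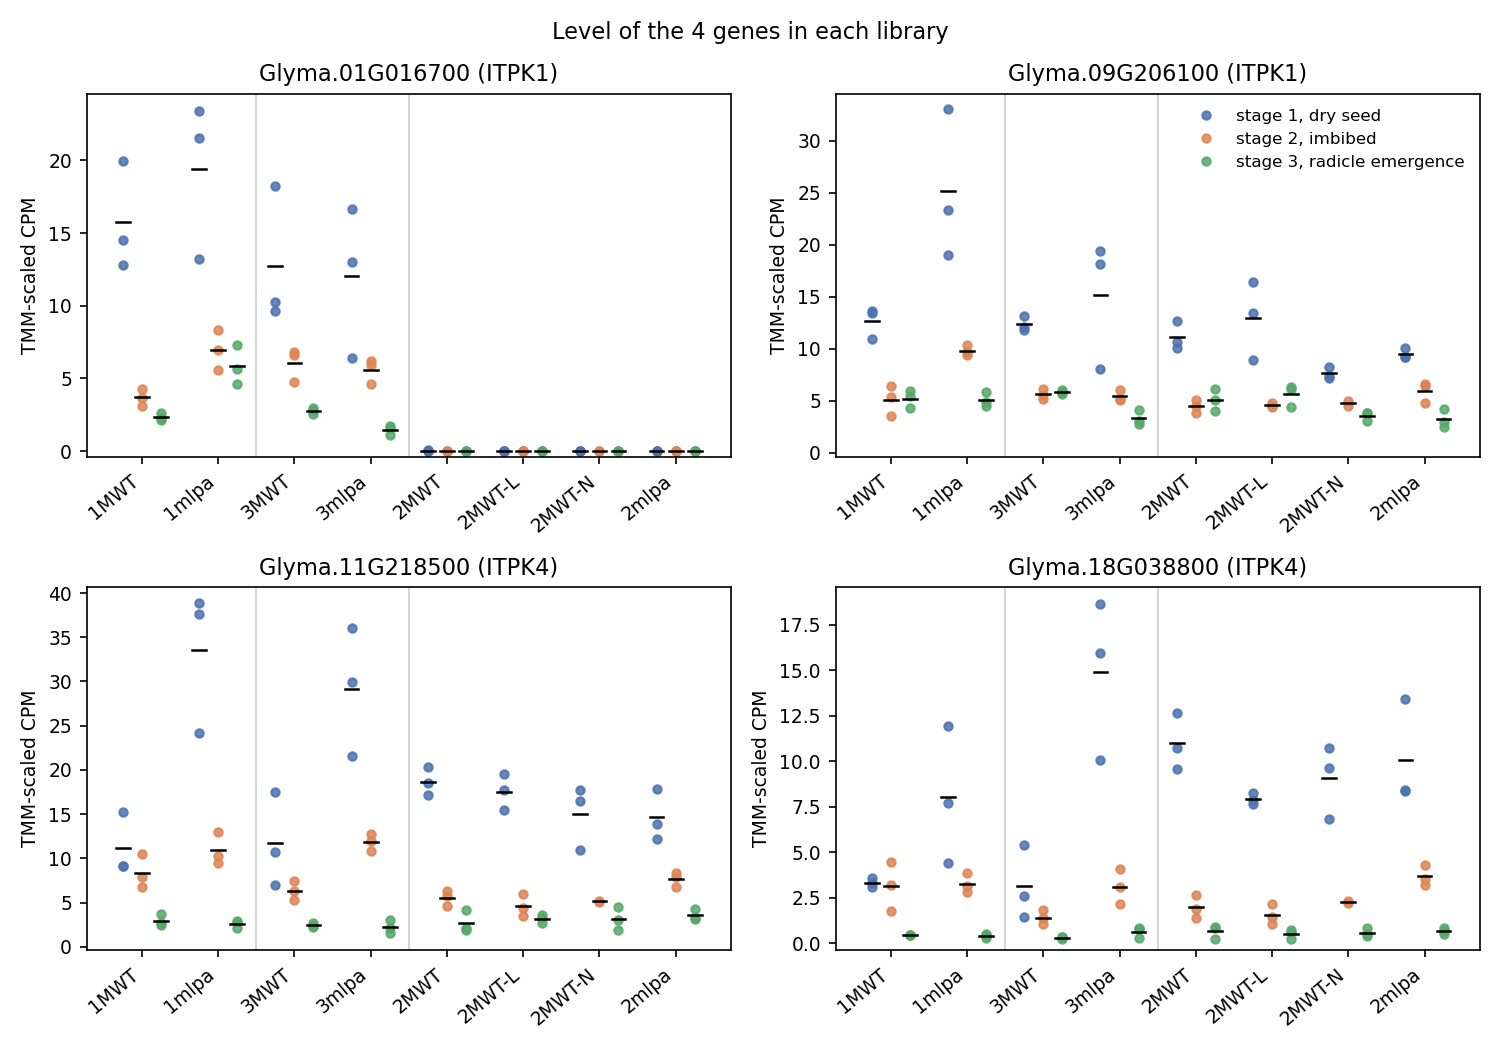
TMM-scaled CPM (y axis, linear, 1 scale per panel) of the 4 genes in each library of usual depth, by line (x axis) and stage (colour), with points for replicates and bars for means. Glyma.01G016700 is at 0 in every MRP line apart from 1 count in 1 library, and dry seeds of *1mlpa* (24.2 to 38.8 CPM) and *3mlpa* (21.5 to 36.05 CPM) stand above the other lines in Glyma.11G218500.

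The first comparison asked how the *mips1* mutation alone goes with the level of these genes. In dry seeds Glyma.11G218500, an ITPK4 gene, was at 37.6, 38.8 and 24.2 CPM in the 3 *1mlpa* libraries and at 9.16, 9.11 and 15.3 CPM in those of 1MWT. All 3 *1mlpa* libraries lay above all 3 of 1MWT. The difference was a log2 fold change of 1.58 (SE 0.25, FDR = 0.000229, the Benjamini-Hochberg adjusted p of the edgeR quasi-likelihood test over all genes tested), and it was a call, meaning an FDR under 0.01 with a log2 fold change over 1 in size. It stayed a call in 18 of 18 refits without 1 library and was lost, at 1.56 (FDR = 0.0106), when only the 6 dry seed libraries were fitted. Its partner Glyma.18G038800 was at 4.40, 11.9 and 7.69 CPM in *1mlpa* and at 3.57, 3.30 and 3.10 CPM in 1MWT. These groups did not overlap either, but the log2 fold change of 1.29 (SE 0.35, edgeR FDR = 0.0128) was not a call. It became one with DESeq2 (FDR = 0.00329) and with no filter on low counts (FDR = 0.00842), and when replicate 1 of dry *1mlpa* (1.58, FDR = 0.0044), or replicate 2 or 3 of 1MWT at stage 2 (both 1.29, FDR = 0.00757 and 0.00771), was left out. The study, which used DESeq2, had listed Glyma.18G038800 for dry seeds of *1mlpa*.

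Of the ITPK1 genes in *1mlpa*, Glyma.01G016700 was a call at stage 3 alone and Glyma.09G206100 at no stage, and the test of their ratio averaged over stages, given with the pair ratios, did not pass (adjusted exact permutation p = 0.536). Glyma.01G016700 was at 4.64, 5.63 and 7.30 CPM in *1mlpa* at stage 3 and at 2.29, 2.12 and 2.63 CPM in 1MWT, with every *1mlpa* library above every 1MWT library. The log2 fold change was 1.31 (SE 0.25, edgeR FDR = 0.00141). The call was lost without replicate 1 of 1MWT at stage 3 (1.30, FDR = 0.0111), without replicate 2 of 1MWT (1.25, FDR = 0.0134) or without replicate 3 of *1mlpa* (1.13, FDR = 0.0145). At stage 1 its libraries overlapped, at 23.4, 21.6 and 13.2 CPM in *1mlpa* against 19.97, 12.8 and 14.5 CPM in 1MWT (log2 fold change 0.30, SE 0.24, FDR = 0.390).

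Glyma.09G206100 was at 33.03, 23.4 and 19.0 CPM in dry *1mlpa* seeds and at 13.5, 13.7 and 10.9 CPM in 1MWT, without overlap. Its log2 fold change of 0.99 (SE 0.23) had an edgeR FDR of 0.00433 and missed the fold criterion alone, and it was a call with DESeq2 and with RLE size factors, both at 1.01. It was also a call without replicate 1 or 2 of dry 1MWT (1.04 and 1.06) or replicate 2 or 3 of dry *1mlpa* (1.04 and 1.17). The study had listed this gene for dry seeds of *1mlpa*. At stage 3 the same gene was at 4.86, 5.88 and 4.46 CPM in *1mlpa* and at 4.27, 5.91 and 5.45 CPM in 1MWT, a log2 fold change of -0.04 (95% interval -0.48 to 0.40). At stage 2 both ITPK1 genes lay higher in all *1mlpa* libraries without being calls, by 0.92 for Glyma.01G016700 (FDR = 0.0190) and 0.94 for Glyma.09G206100 (FDR = 0.0110), the latter a call without replicate 1 of 1MWT at stage 2 (1.14, FDR = 0.00857).

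Over the 3 stages, 2 of the 12 tests of the 4 genes in *1mlpa* against 1MWT were calls, both higher, beside 8.37%, 3.55% and 4.85% of the 31682 genes tested, taking the stages in order. All libraries of *1mlpa* lay above all of 1MWT for 3, 2 and 1 of the 4 genes at stages 1, 2 and 3, beside 15.2%, 18.2% and 22.4% of all genes. Since these genes were listed for this contrast, nothing is read from those shares. The median log2 fold change of the 12 was 0.65, against a median between -0.04 and -0.03 over all genes at the 3 stages. The 4 storage genes summed to 78.7 to 174 CPM of the library total in dry *1mlpa* seeds and to 88.9 to 282 CPM in dry 1MWT seeds, and their part in these differences was not tested.

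**Figure D2:**
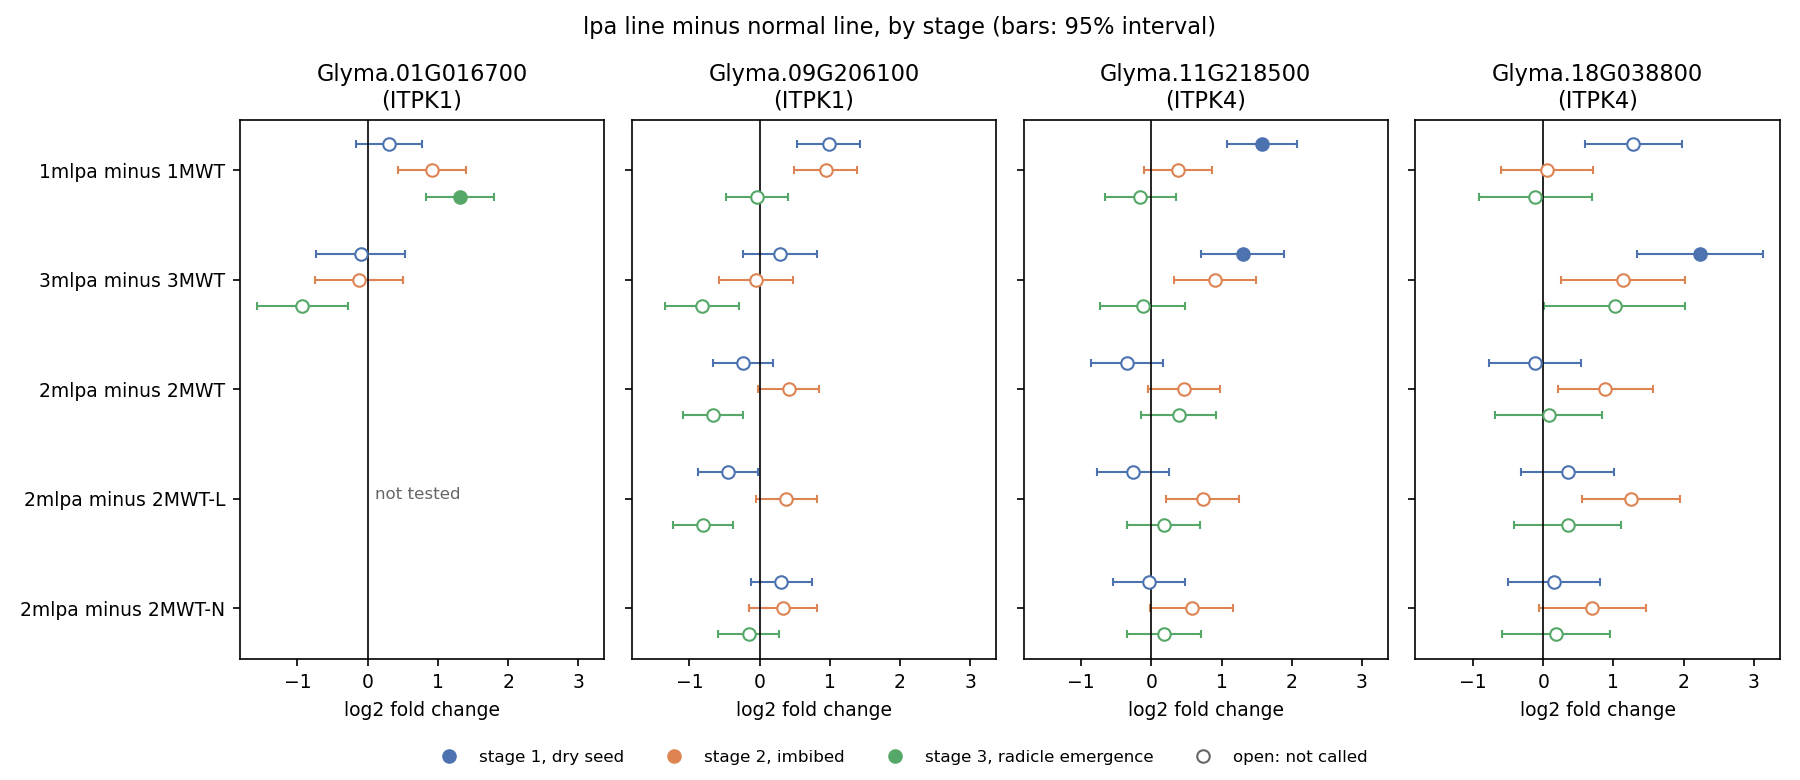
Log2 fold change of each gene (x axis, 1 panel per gene) between a low phytic acid line and a normal line (rows), by stage (colour), with 95% intervals. Filled points are calls, which are Glyma.11G218500 in *1mlpa* and *3mlpa* at stage 1, Glyma.18G038800 in *3mlpa* at stage 1 and Glyma.01G016700 in *1mlpa* at stage 3.

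The second comparison joined *mips1* with both *mrp* mutations. In dry seeds Glyma.18G038800 was at 15.9, 10.1 and 18.6 CPM in *3mlpa* and at 2.58, 1.41 and 5.38 CPM in 3MWT, with no overlap. It was a call with a log2 fold change of 2.24 (SE 0.46, edgeR FDR = 0.00469), and it had the largest fold of the 4 genes in this line. Glyma.11G218500 was at 30.0, 21.5 and 36.05 CPM in *3mlpa* and at 6.98, 10.8 and 17.5 CPM in 3MWT, also without overlap and also a call, at 1.30 (SE 0.30, FDR = 0.00938). Both calls were lost when counts were scaled by library totals alone, at 1.84 (FDR = 0.0285) and 0.94 (FDR = 0.0817), the latter also under the fold criterion. They were also lost when only the 6 dry seed libraries were fitted, at 2.17 (FDR = 0.163) and 1.23 (FDR = 0.284).

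Single libraries decided both calls as well. The call of Glyma.18G038800 was lost without replicate 1 or 2 of dry 3MWT (2.10, FDR = 0.0204, and 1.86, FDR = 0.0137) and without replicate 1 or 3 of dry *3mlpa* (2.17, FDR = 0.0223, and 2.03, FDR = 0.0161). That of Glyma.11G218500 held in 3 of the 18 refits without 1 library, those without replicate 3 of dry 3MWT, replicate 2 of dry *3mlpa* or replicate 3 of *3mlpa* at stage 3. Across the 18 refits its log2 fold change was 1.02 to 1.70, with an FDR of 0.00179 to 0.0382. Replicate 2 of dry 3MWT held the lowest value of Glyma.18G038800 among the dry 3MWT libraries, 1.41 CPM. That library had counts for 24686 genes, against 30915 and 33956 in replicates 1 and 3, and the part of this was not tested.

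At the later stages neither ITPK4 gene was a call, although the study, using DESeq2, had listed Glyma.18G038800 at stages 2 and 3. At stage 2 both ITPK4 genes were higher in all *3mlpa* libraries, by 0.90 (FDR = 0.151) for Glyma.11G218500 and 1.14 (FDR = 0.265) for Glyma.18G038800. Glyma.18G038800 became a call when the 6 libraries of stage 2 were fitted alone (FDR = 0.00954). At stage 3 Glyma.11G218500 was at 2.10, 1.59 and 3.08 CPM in *3mlpa* and 2.40, 2.30 and 2.70 CPM in 3MWT, overlapping (log2 fold change -0.13, FDR = 0.870). Glyma.18G038800 was at 0.76, 0.81 and 0.26 CPM in *3mlpa* and 0.31, 0.36 and 0.21 CPM in 3MWT at that stage, also overlapping, with a log2 fold change of 1.02 (SE 0.52, FDR = 0.266). Whether the effects on the 2 ITPK4 genes differed from each other at single stages was not tested, since their ratio was tested only as an average over stages.

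At stage 3 the ITPK1 genes had lower values in *3mlpa* than in 3MWT. Glyma.01G016700 was at 1.58, 1.08 and 1.71 CPM in *3mlpa* and at 2.97, 2.83 and 2.57 CPM in 3MWT. Glyma.09G206100 was at 2.79, 3.01 and 4.16 CPM against 6.06, 5.85 and 5.69 CPM. In both genes all *3mlpa* libraries lay below all of 3MWT, with log2 fold changes of -0.93 (SE 0.33, FDR = 0.0980) and -0.82 (SE 0.27, FDR = 0.0692), neither a call. In dry seeds the log2 fold changes were -0.10 and 0.29, with overlapping libraries in both genes.

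In all, 2 of the 12 tests in *3mlpa* against 3MWT were calls, both higher, beside 3.95%, 0.795% and 3.64% of the 31307 genes tested, in the same order of stages, from which nothing is read because the ITPK4 genes were listed for this contrast too. Libraries did not overlap for 2 genes, higher, at stage 1 (10.6% of all genes), 2 genes, higher, at stage 2 (20%) and 2 genes, lower, at stage 3 (22.5%). The 12 log2 fold changes had a median of 0.12. Over all genes tested the median was 0.15 in dry seeds, and it was -0.07 with library totals alone. The 4 storage genes summed to 109 to 510 CPM of the library total in dry *3mlpa* seeds and 198 to 279 CPM in dry 3MWT seeds, and the part of this, and of the wide TMM factors of *3mlpa*, was not tested.

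Whether the difference between lines itself changed with the stage was tested as an interaction, where an FDR under 0.01 alone made a call. The study had listed Glyma.11G218500 in the Mips subset for dry seeds only, so its interaction restates the pattern for which it was listed. In the Mips subset the stage 1 effect on Glyma.11G218500 exceeded that at stage 3 by 1.73 on the log2 scale (SE 0.36, edgeR FDR = 0.00646), beside 2.51% of all genes. It was the only call among 16 such tests, of which 8 had an unadjusted p under 0.05. That p was reached by 18.2% and 23.7% of all genes for stage 1 minus 2 and stage 1 minus 3 in the Mips subset and by 17% and 23.6% in the Mips-MRP subset. The value fell to 1.49 (FDR = 0.0339) with library totals alone and was no longer a call. Leaving out 1 library at a time it was a call in 10 of 18 refits, at 1.53 to 2.05 with an FDR of 0.00346 to 0.0236. The refits in which it was lost were those without replicate 2 of dry 1MWT (1.63), replicate 1 or 2 of 1MWT at stage 3 (1.53 and 1.80), replicate 1 or 2 of dry *1mlpa* (1.67 and 1.63) and replicate 1, 2 or 3 of *1mlpa* at stage 3 (1.82, 1.78 and 1.61). The other interactions of the ITPK4 genes with stage, in both subsets, were all above 0 (0.40 to 1.43) without reaching the threshold, at percentages of all genes called of 0.622% (stage 1 minus 2, Mips), 0.0192% (stage 1 minus 2, Mips-MRP) and 1.13% (stage 1 minus 3, Mips-MRP). Without replicate 2 of dry *3mlpa*, the stage 1 minus stage 3 effect of Glyma.09G206100 in the Mips-MRP subset became a call at 1.42 (FDR = 0.00251).

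The effect of *1mlpa* was then set against that of *3mlpa* in 1 fit of the 36 libraries that share a count table. Glyma.01G016700 at stage 3 was the only call of 12 tests, beside 0.266% of all genes, and 5 of the 12 had an unadjusted p under 0.05, beside 28.5%, 11.1% and 7.70% of all genes at stages 1 to 3. Its effect in *1mlpa* was 2.24 higher on the log2 scale than in *3mlpa* (SE 0.42, edgeR FDR = 0.00376), as it lay above 1MWT in the first and below 3MWT in the second. The gene had been listed for stage 3 of *1mlpa* and not for *3mlpa*, so this test is no independent evidence of that difference. It stayed a call under each of the 7 other settings run and in 30 of 36 refits without 1 library, at 2.05 to 2.37. The 6 refits that lost it left out replicate 1 or 2 of 1MWT (2.22, FDR = 0.0154, and 2.17, FDR = 0.0163), replicate 3 of *1mlpa* (2.05, FDR = 0.0174), replicate 1 or 2 of 3MWT (2.19, FDR = 0.0124, and 2.23, FDR = 0.0102) or replicate 2 of *3mlpa* (2.06, FDR = 0.0214), all at stage 3.

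The ITPK4 gene Glyma.18G038800 had effects 0.92, 1.09 and 1.14 lower in *1mlpa* than in *3mlpa* at stages 1, 2 and 3, with an FDR of 0.305, 0.497 and 0.798, so no difference between the lines was shown for it. For Glyma.11G218500 the difference of effects in dry seeds was 0.31 (95% interval -0.47 to 1.09), which leaves room for effects that differ by more than 2-fold. At stages 1 and 2 the percentages of all genes called were 5.31% and 0.481%. The 2 normal lines of these subsets were also compared, and none of the 12 tests of 1MWT against 3MWT was a call with edgeR or with DESeq2, while 2 had an unadjusted p under 0.05, beside 4.89%, 1.73% and 1.62% of all genes called at stages 1 to 3 and 28.3%, 12.2% and 10.1% with such a p.

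In the MRP subset *2mlpa* carries both *mrp* mutations without *mips1*, and there Glyma.01G016700 had too few counts to be tested. The other 3 genes gave 27 tests against 2MWT, 2MWT-L and 2MWT-N, of which 0 were calls with edgeR or with DESeq2 and 6 had an unadjusted p under 0.05. Of all 31363 genes tested, 2.18%, 1.24% and 1.98% were calls against 2MWT at stages 1 to 3, 7.11%, 6.24% and 2.11% against 2MWT-L, and 2.27%, 0.698% and 0.504% against 2MWT-N. An unadjusted p under 0.05 was reached by 26.1%, 19.5% and 25.2% of all genes against 2MWT, 35.6%, 34.1% and 24.2% against 2MWT-L, and 25.8%, 14.7% and 10.9% against 2MWT-N, and the share of 6 in 27 lies within the range of these percentages. These genes were not listed for *2mlpa*. The 3 sets of tests share the *2mlpa* libraries and are not independent of each other.

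In dry seeds the ITPK4 genes stood above 1MWT and 3MWT in the other low phytic acid lines. There Glyma.11G218500 was at 13.9, 12.3 and 17.8 CPM in *2mlpa*, against 20.3, 18.6 and 17.2 CPM in 2MWT, 17.7, 19.5 and 15.4 CPM in 2MWT-L and 10.9, 17.7 and 16.5 CPM in 2MWT-N. The log2 fold change against 2MWT was -0.35 (95% interval -0.87 to 0.16), so a difference as large as that of *1mlpa* from 1MWT lay outside the interval. Glyma.18G038800 was at 8.42, 8.39 and 13.4 CPM in *2mlpa* and at 10.7, 9.60 and 12.6 CPM in 2MWT, overlapping (log2 fold change -0.12, 95% interval -0.78 to 0.53). This gene was at 6.84 to 10.7 CPM in dry 2MWT-N and 7.64 to 8.27 CPM in dry 2MWT-L. All 3 normal lines lay above 1MWT (3.10 to 3.57 CPM) and 3MWT (1.41 to 5.38 CPM) and overlapped *1mlpa* (4.40 to 11.9 CPM). A high level of this gene in dry seeds was thus not limited to lines with *mips1*. Glyma.11G218500 stayed lower in these lines than in *1mlpa* and *3mlpa*. The subsets were scaled apart, and levels were not tested between the count tables. In dry seeds 3 comparisons of *2mlpa* with its normal lines had no overlap between libraries. They were Glyma.09G206100 below 2MWT (as for 9.44% of all genes) and above 2MWT-N (11.8%) and Glyma.18G038800 above 2MWT-L (16.2%). The log2 fold changes were -0.23, 0.31 and 0.35, none a call.

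At stage 2 Glyma.18G038800 came nearest to a call. It was at 4.27, 3.20 and 3.54 CPM in *2mlpa*, against 2.66, 1.38 and 1.90 CPM in 2MWT, 1.05, 1.43 and 2.14 CPM in 2MWT-L, and 2.31 and 2.21 CPM in the 2 usable libraries of 2MWT-N. Every *2mlpa* library lay above every library of the normal lines. The log2 fold changes were 0.89 (FDR = 0.138), 1.25 (FDR = 0.0126) and 0.70 (FDR = 0.426), and the last was 0.70 (FDR = 0.452) without the near-empty library. The second of them became a call without replicate 3 of 2MWT at stage 3 (1.25, FDR = 0.00483) and without replicate 2 of 2MWT-L at stage 3 (1.25, FDR = 0.00876), 2 libraries outside the contrast, and fell to 0.86 with library totals alone. Glyma.11G218500 was likewise above all normal libraries at that stage, at 8.32, 6.76 and 7.87 CPM in *2mlpa*, with log2 fold changes of 0.46, 0.73 and 0.57, none a call. Against each normal line singly, 18.1%, 20% and 19.6% of all genes were above 2MWT, 2MWT-L and 2MWT-N without overlap at stage 2. The share above all 3 lines at once, which can only be the same or smaller, was not computed. The 4 storage genes summed to 4844 to 6350 CPM of the library total in *2mlpa* at stage 2, and to 427 to 2122 CPM in the normal lines, and their part was not tested.

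The ITPK1 gene Glyma.09G206100 lay lower in *2mlpa* at stage 3, at 2.98, 2.45 and 4.21 CPM, against 4.06, 6.10 and 5.09 CPM in 2MWT, 6.15, 6.33 and 4.36 CPM in 2MWT-L and 3.82, 3.82 and 3.09 CPM in 2MWT-N. The *2mlpa* libraries did not overlap those of 2MWT-L, as for 19.2% of all genes, but overlapped the other normal lines. The log2 fold changes were -0.66 (FDR = 0.0557), -0.81 (FDR = 0.0196) and -0.15 (FDR = 0.885), none a call.

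The single *mrp* mutants, 2MWT-L and 2MWT-N, were compared with 2MWT in 18 tests of the same 3 genes. None was a call with edgeR or with DESeq2 and 2 had an unadjusted p under 0.05, with log2 fold changes between -0.55 and 0.21. Those 2 were Glyma.09G206100 in 2MWT-N, at -0.55 in dry seeds (FDR = 0.122) and -0.51 at stage 3 (FDR = 0.489). Of all genes, 0.635%, 0.201% and 0.555% were calls in 2MWT-L at stages 1 to 3 and 1.45%, 0.115% and 0.214% in 2MWT-N. An unadjusted p under 0.05 was reached by 18.9%, 15.2% and 17.6% in 2MWT-L and by 23.4%, 3.76% and 8.87% in 2MWT-N.

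Glyma.01G016700 set the 2 count tables apart. It had 6583 counts over the 36 Mips and Mips-MRP libraries, 40 to 339 in each, and 1 count over the 36 MRP libraries, in replicate 1 of dry 2MWT. Per count of the table totals, 1028955897 and 1017129262, the ratio was 6507 with an exact 95% interval of 1168 to 257065 that covers counting error only. The other ITPK1 gene, Glyma.09G206100, had 8215 and 6209 counts in the 2 tables, Glyma.11G218500 had 8763 and 6923, and Glyma.18G038800 had 2488 and 2985. Only 2 of the 17337 genes with at least 10 counts in each Mips and Mips-MRP library had 3 counts or fewer over the MRP libraries, Glyma.01G016700 and Glyma.01G115100, the latter named after its values were seen, and 0 genes showed the reverse pattern.

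The genes beside it on chromosome 1 did not share this gap. Glyma.01G016800, the next gene, had a median of 24.3 CPM of the library total in the Mips and Mips-MRP libraries and 25.8 CPM in the MRP libraries of usual depth. On the other side, Glyma.01G016400 had 5.32 and 5.21 CPM, and the 2 genes between it and Glyma.01G016700 were near 0 in both tables. 3MWT and 2MWT came from the same pair of parents and carry no mutation in the 3 target genes, yet Glyma.01G016700 was at 9.60 to 18.3 CPM in dry 3MWT seeds and at 0.07 CPM or 0 in dry 2MWT seeds. The MRP lines were all counted in a table of their own, so the lines and the way their table was made cannot be told apart here.

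**Figure D3:**
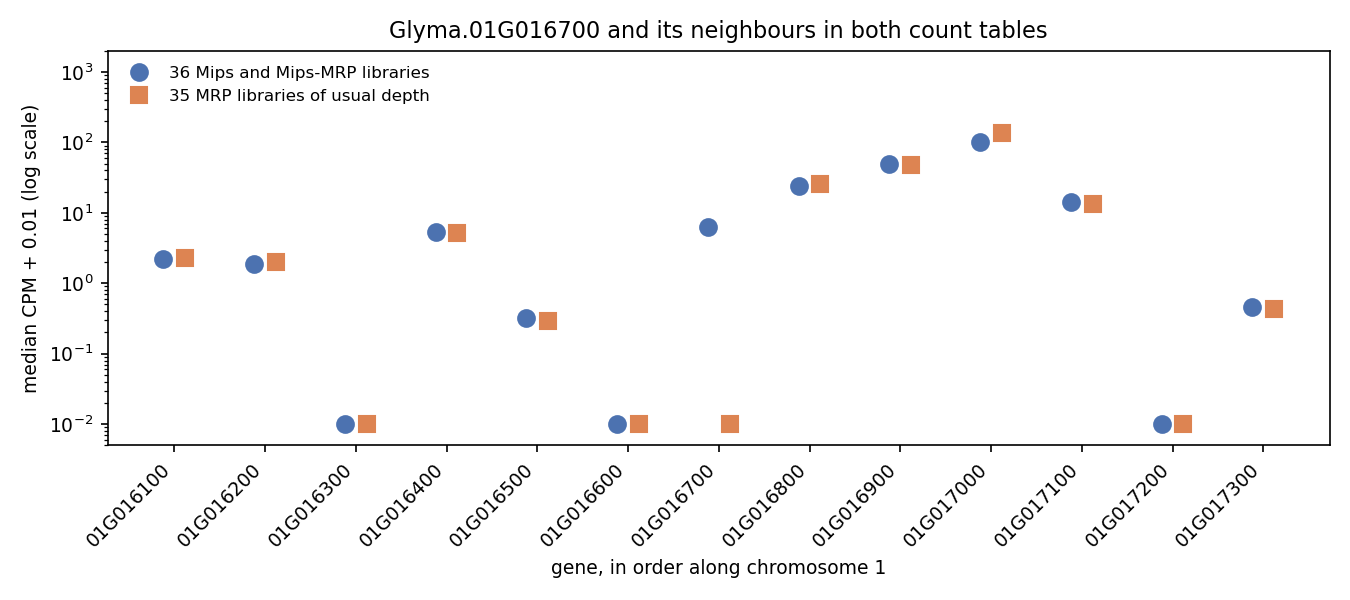
Median CPM of the library total plus 0.01 (y axis, log scale) of Glyma.01G016700 and the 6 genes on either side of it, in order along chromosome 1 (x axis), in 36 Mips and Mips-MRP libraries (circles) and 35 MRP libraries (squares). The circle and square of each neighbour lie close together, while Glyma.01G016700 is at 6.18 CPM in the first and 0 in the second.

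The last comparison set the stages of germination against each other within a line. With TMM scaling all 28 log2 fold changes of stage 2 against stage 1 within a line were below 0, and 20 were calls, all lower, at a median of -1.34. Beside this, 16.2%, 17.9%, 13.6%, 13.1%, 11.2%, 17.8%, 17.2% and 15.4% of all genes were called lower in *1mlpa*, 1MWT, *3mlpa*, 3MWT, *2mlpa*, 2MWT, 2MWT-L and 2MWT-N, and the median over all genes was 0.11 to 0.34. Glyma.01G016700 was called lower in 3 of the 4 lines where it was tested, Glyma.09G206100 in 6 of 8, Glyma.11G218500 in 5 of 8 and Glyma.18G038800 in 6 of 8. Refits without 1 library gave 18 to 22 calls, and the call of Glyma.01G016700 in 3MWT held in 5 of 18 of them. The ITPK4 genes in 1MWT were among those not called, at -0.42 (FDR = 0.143) for Glyma.11G218500 and -0.08 (FDR = 0.859) for Glyma.18G038800.

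These falls depended on the scaling. With library totals alone only 2 of the 28 were calls, and the median gene then rose by 1.00 to 1.86 on the log2 scale from stage 1 to stage 2, by line. Shares of all genes called are given for TMM only, here and below, so counts of calls with library totals are a description. In dry seeds of *1mlpa*, for example, Glyma.09G206100 was at 33.03, 23.4 and 19.0 CPM with TMM and at 12.1, 11.6 and 9.64 CPM of the library total. At stage 2 the same gene was at 10.3, 9.68 and 9.41 CPM with TMM and at 11.7, 11.7 and 10.6 CPM of the total. The groups did not overlap on the first scale and overlapped on the second. Over the 8 lines its median log2 fold change was -1.31 with TMM and 0.01 with totals, so on either scale it lay below the median gene. The calls left with totals were both of Glyma.18G038800, which moved in opposite directions, at 1.34 (FDR = 0.00495) in 1MWT, where it was not called with TMM, and at -1.17 in 2MWT. With totals this gene was below 0 in 7 of 8 lines, at a median of -0.74, and 1MWT was the only rise.

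From stage 2 to stage 3 the ITPK4 genes fell on both scales. Glyma.18G038800 was called lower in 8 of 8 lines with TMM, at -2.99 to -1.55, and in 8 of 8 with library totals, at -2.62 to -1.31. In *1mlpa*, for instance, it was at 3.87, 2.80 and 3.15 CPM at stage 2 and at 0.45, 0.52 and 0.26 CPM at stage 3, which was 12 to 27 counts per library. With DESeq2 it was called in 5 of 8. Leaving out replicate 3 of 3MWT at stage 2 (-2.02), replicate 3 of 3MWT at stage 3 (-2.05), replicate 3 of 2MWT-L at stage 2 (-1.24) or replicate 2 of 2MWT-L at stage 3 (-1.20) lost the call of that line.

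Glyma.11G218500 was called lower from stage 2 to 3 in 6 of 8 lines with TMM (-2.39 to -0.54), in 3 of 8 with totals and in 4 of 8 with DESeq2, and was below 0 in every line under each of them. Its call in 2MWT was lost without replicate 1 or 2 of stage 2 (-0.999962, just under the fold criterion in size, and -0.92) or replicate 1 or 3 of stage 3 (-0.88 and -0.81), and that in 3MWT without replicate 3 of stage 2 (-1.24) or replicate 1 or 2 of stage 3 (-1.34 and -1.32). Without replicate 1 of 2MWT-N at stage 3, that line was called too (-1.05). The median of all genes was 0.00 to 0.06 with TMM and 0.23 to 0.69 with totals.

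The ITPK1 genes gave fewer calls over this step. Glyma.09G206100 was called in 0 of 8 lines on either scale, with 4 lines above 0 and 4 below with TMM (-0.95 to 0.30), and the same 0 of 8 with DESeq2, while 3 of the 8 had an unadjusted edgeR p under 0.05, as had 56.3%, 53.4%, 42.6%, 42.3%, 60.1%, 53.5%, 51.9% and 52.3% of all genes in the 8 lines in the order above. In *1mlpa* (-0.95, FDR = 0.00169) and *2mlpa* (-0.89, FDR = 0.000996) it missed the fold criterion alone. It met it without replicate 3 of *1mlpa* at stage 2 (-1.001) or replicate 2 of *1mlpa* at stage 3 (-1.07), and without replicate 2 of *2mlpa* at stage 2 (-1.05) or replicate 3 of *2mlpa* at stage 3 (-1.13). Glyma.01G016700 was called lower only in *3mlpa*, where it was at 4.63, 5.90 and 6.19 CPM at stage 2 and 1.58, 1.08 and 1.71 CPM at stage 3 (log2 fold change -1.93, SE 0.34, FDR = 0.000229). In *1mlpa* its change was -0.25 (SE 0.24, FDR = 0.397). In 3MWT it was -1.12 (FDR = 0.0117), which became a call with DESeq2 (FDR = 0.00557) and in 4 of 18 refits without 1 library. In all, 15 of the 28 tests were calls, all lower, beside 14.6%, 14.4%, 10.1%, 10.5%, 16.7%, 13.7%, 14.1% and 14.4% of all genes called lower in the same 8 lines.

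**Figure D4:**
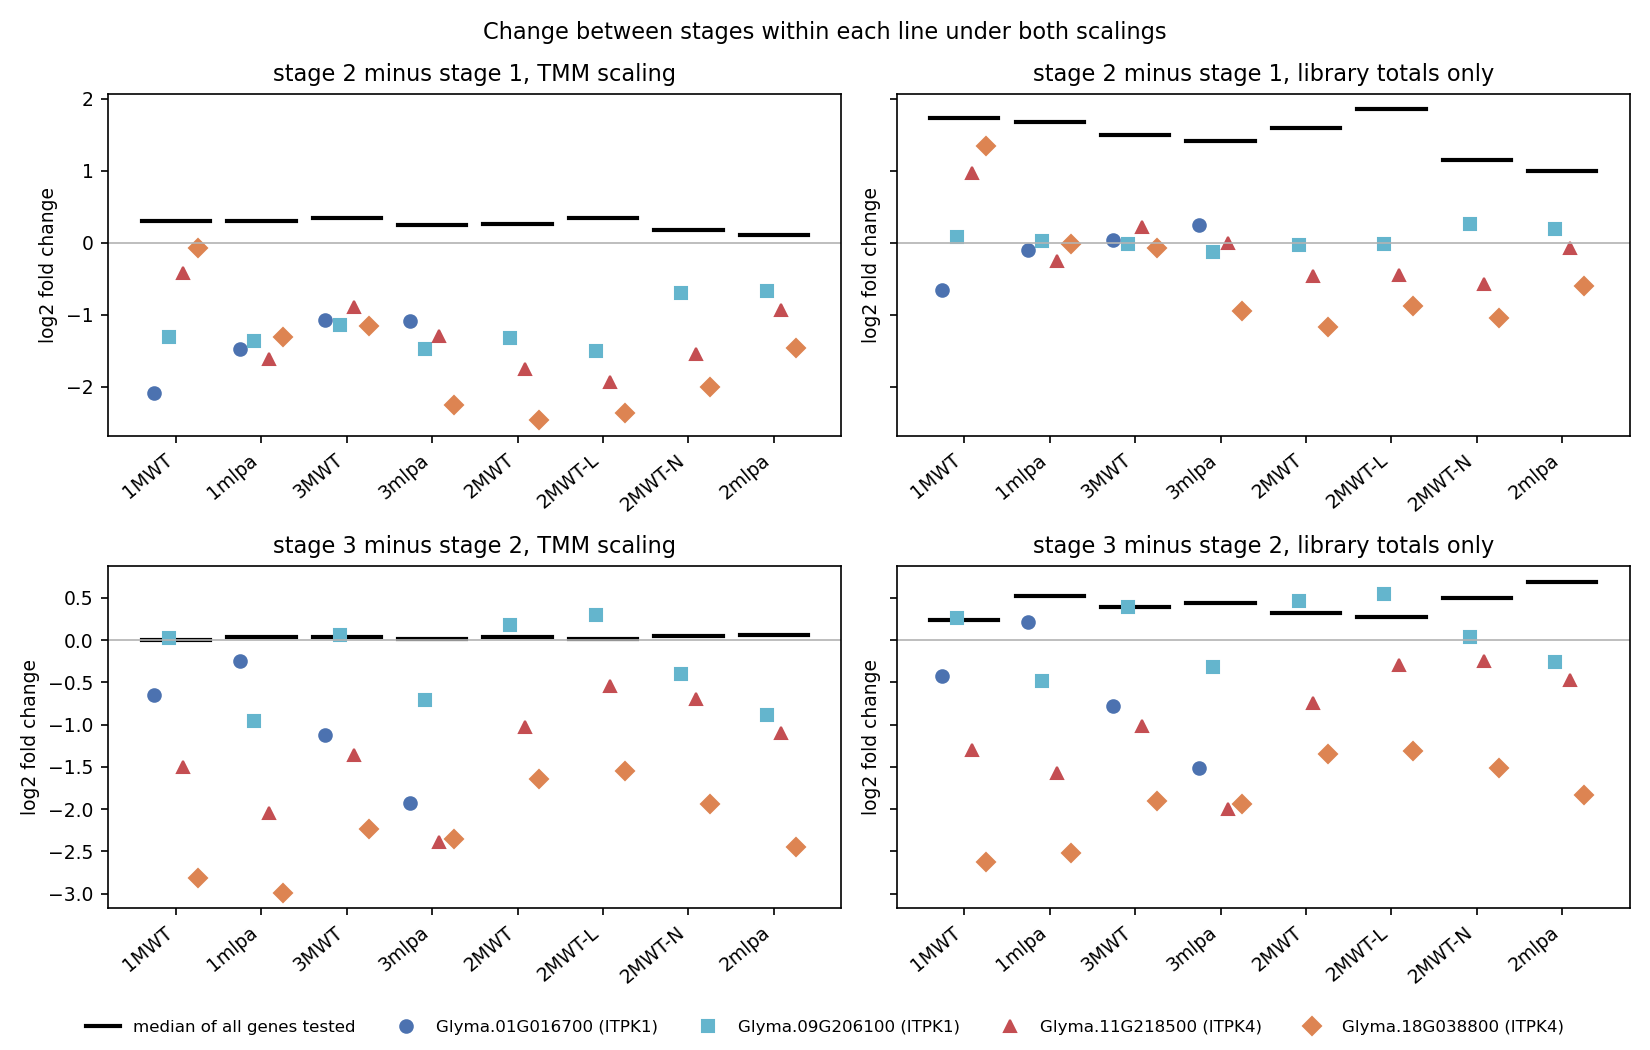
Log2 fold change between stages (y axis) within each of the 8 lines (x axis), for stage 2 minus stage 1 (top) and stage 3 minus stage 2 (bottom), with TMM scaling (left) and library totals alone (right). Symbols are the 4 genes and black bars the median of all genes tested. From stage 1 to 2 the genes shift from a median near -1.3 to one near 0 between scalings, while Glyma.18G038800 is below -1.3 at stage 3 against stage 2 on both.

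The ratio of the 2 genes of a pair within a library does not depend on the scaling. Glyma.11G218500 made up most of the ITPK4 counts per kb everywhere, with group means between 69.0% (*2mlpa*, dry seeds) and 92.6% (3MWT, stage 3). In dry seeds of *3mlpa* its share was 75.0% ± 1.23 (SD, n = 3), against 85.2% ± 6.09 in 3MWT. In *2mlpa* it was 69.0% ± 2.30 at stage 1, 76.0% ± 1.23 at stage 2 and 89.1% ± 1.45 at stage 3, and in 2MWT-L 76.9% ± 2.68, 82.2% ± 1.32 and 90.5% ± 3.71 (SD, n = 3 each).

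Averaged over stages, the log2 ratio of Glyma.11G218500 to Glyma.18G038800 was lower in *2mlpa* than in 2MWT-L by 0.47 (exact two-sided permutation test within stages, p = 0.00475, adjusted over 7 tests 0.0333), and lower at each of the 3 stages. This was the only one of the 7 tests under 0.05 after adjustment. It rose above 0.05 when replicate 2 of 2MWT-L at stage 3 (adjusted exact p = 0.0945), replicate 2 or 3 of dry *2mlpa* (0.0508 and 0.0525), replicate 1 of *2mlpa* at stage 2 (0.0508) or replicate 2 or 3 of *2mlpa* at stage 3 (0.114 and 0.0980) was left out. In *3mlpa* against 3MWT the ratio was lower by 0.77 (exact p = 0.0363, adjusted 0.127), and it reached an adjusted exact p of 0.0123 without replicate 3 of *3mlpa* at stage 3, where the difference was -1.02. Against 2MWT and 2MWT-N the differences of *2mlpa* were -0.14 and -0.09 (adjusted exact p = 0.536 for both).

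The ITPK1 pair was near balance per kb in the 4 lines with counts, with Glyma.01G016700 between 40.4% and 65.4% of the pair in the group means. In *1mlpa* it held over 50% on average at each stage, and in the other 3 lines at stages 1 and 2 only. At stage 3 Glyma.01G016700 held 41.3% ± 5.001 of the pair in 1MWT, 42.3% ± 1.11 in 3MWT and 40.4% ± 5.73 in *3mlpa*, but 63.7% ± 6.95 in *1mlpa* (SD, n = 3 each). At stage 1 the order of the Mips lines was the other way, with 65.4% ± 5.48 in 1MWT and 54.3% ± 3.89 in *1mlpa*. Because the stages differed in sign, the mean difference over stages between *1mlpa* and 1MWT was 0.20 (adjusted exact permutation p = 0.536), made up of -0.67, -0.07 and 1.33 at stages 1, 2 and 3.

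**Figure D5:**
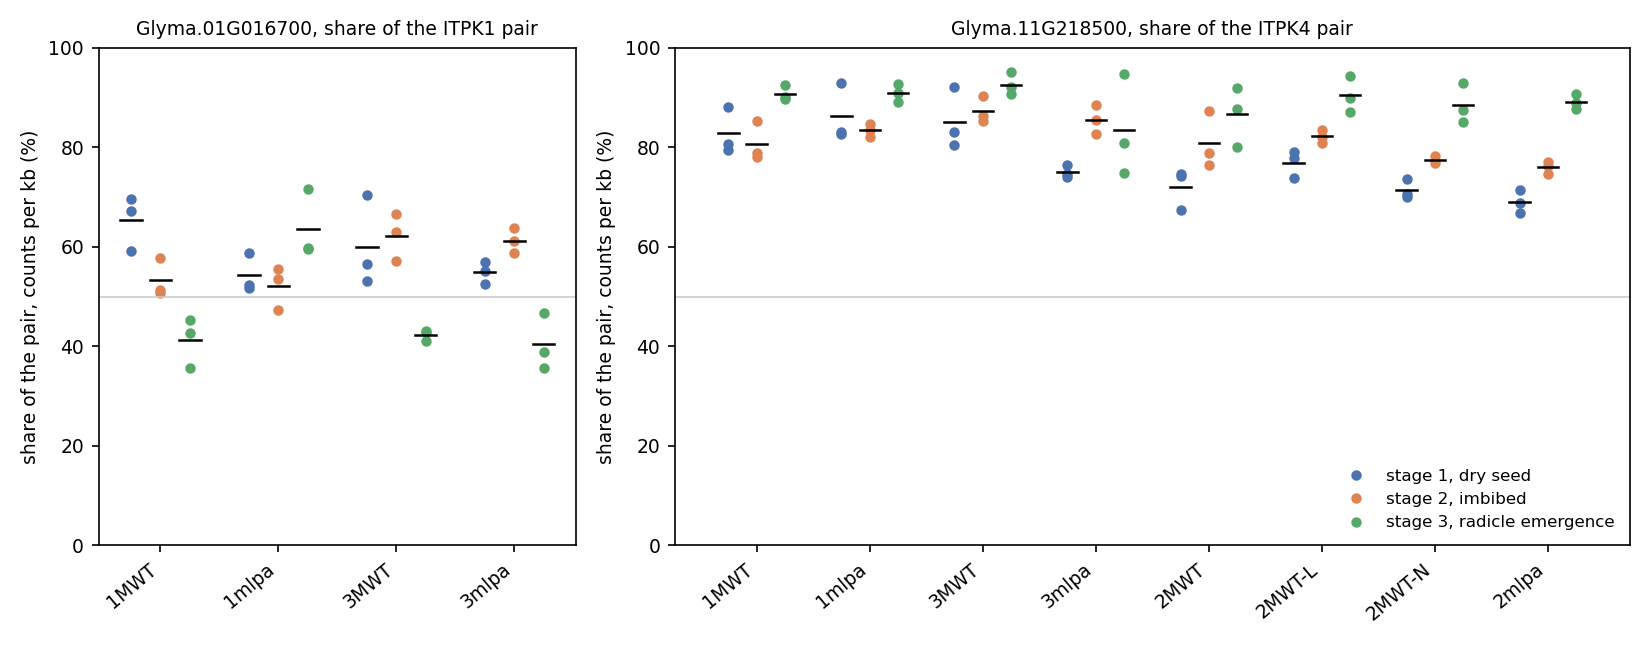
Share of counts per kb (y axis, percent) held by Glyma.01G016700 within the ITPK1 pair (left) and by Glyma.11G218500 within the ITPK4 pair (right), by line (x axis) and stage (colour), with points for libraries and bars for means. At stage 3 *1mlpa* stands apart in the ITPK1 pair at a mean of 63.7%, while the ITPK4 pair stays above 50% in every library.

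Of the other genes of the pathway, the 3 mutated ones were followed. MIPS1 (Glyma.11G238800), which makes the inositol phosphate at the start of the pathway, was called higher in *1mlpa* at stages 1 and 2 (log2 fold changes 2.496 and 1.65), and called lower from stage 1 to 2 and from stage 2 to 3 in 8 of 8 lines each with TMM. MRP-N and MRP-L, the transporters, were called higher from stage 1 to 2 in 8 of 8 and 6 of 8 lines with TMM, beside 27.5%, 28.8%, 17.7%, 25.5%, 18.1%, 26.8%, 29% and 22.5% of all genes called higher in the order of lines above. Neither was called between a low phytic acid line and a normal line at any stage. In dry *1mlpa* seeds against 1MWT, MRP-L missed the fold criterion alone, at -0.89 (edgeR FDR = 0.00632). Its effect in *1mlpa* was lower than that in *3mlpa* by a call in 1 of 3 tests (-1.34, edgeR interaction FDR = 0.00461). Of all genes, 5.31%, 0.481% and 0.266% were calls in that test at stages 1 to 3. Other members of the pathway were not analysed here, since the tables used carry no gene descriptions.

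As a description over the 24 groups of line and stage, the gene whose mean log2 level was most like that of Glyma.11G218500 among 30185 genes was MIPS1, with Pearson r = 0.97, followed by Glyma.13G202300 with r = 0.97. For Glyma.18G038800 the nearest were Glyma.09G234700 (r = 0.97) and Glyma.09G250400 (r = 0.96), and for Glyma.09G206100 they were Glyma.16G029500 (r = 0.97) and Glyma.13G238900 (r = 0.96). The ITPK4 pair had r = 0.95 over the 24 groups and the ITPK1 pair r = 0.91 over the 12 groups of the Mips and Mips-MRP subsets. Most lines share the fall of TMM-scaled levels after stage 1, and the points share libraries and scaling factors, here computed over both count tables together. The nearest genes of Glyma.01G016700, Glyma.06G283200 and Glyma.01G122300 (r = 0.96 and 0.95), were found over all 24 groups and so share its gap between the count tables.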

How the data were processed

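Per the methods of the study, the authors trimmed reads with Skewer 0.2.2, aligned them to Wm82.a2.v1 with STAR 2.5.2b and deposited unnormalised counts of read pairs per gene from featureCounts 1.5.1. Per the file headers, exons were counted per gene for pairs with both ends mapped, and no option for strand, for multi-mapping reads or for reads over several genes was set. The deposited counts came in 2 tables, 1 for the Mips and Mips-MRP subsets and 1 for the MRP subset. They were not joined in any edgeR, DESeq2 or permutation test. They were set together for the ratio of counts between the tables and its exact interval. The correlations of levels between genes used TMM factors computed over the 71 libraries of usual depth from both. Columns were matched to samples by their labels.

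Each subset was fitted across all genes with edgeR 4.0.16 (R 4.3.3), TMM factors and the quasi-likelihood test, after keeping genes with a mean normalised count above 10. A call needed a Benjamini-Hochberg FDR under 0.01 and a log2 fold change over 1 in size, and interactions needed the FDR alone. Standard errors came from the log2 fold change and its F statistic, and 95% intervals from them by the normal approximation. Ratios within a pair used 0.5 added counts and exact permutation within stages. Scripts were tested on simulated data. Alternatives were DESeq2 1.42.0, other factors and filters, smaller fits, a replicate block and refits without 1 library. Replicate numbers were not used to pair samples. The named genes are the 4 members, the 3 mutated pathway genes, for each member, the 2 genes with the most similar levels, and genes that overlap a member, besides exceptions named as such. The members and lists were chosen with earlier results of these data known. No protein or promoter sequences were used here, since the reference table does not carry these gene IDs.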

Additional observations from a re-analysis of the deposited data

Results flagged for a closer look

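The stage 1 effect of *1mlpa* against 1MWT on Glyma.11G218500, an ITPK4 gene, exceeded its stage 3 effect by 1.73 on the log2 scale. It was listed because the test of the difference itself passed (edgeR interaction FDR = 0.00646). The effects were 1.58 in dry seeds and -0.16 at radicle emergence. The gene had been listed by the study, from these libraries, for dry seeds of that subset alone, so the test is not independent of the choice of gene. The stage 3 effect on Glyma.01G016700, an ITPK1 gene, was 2.24 higher in *1mlpa* than in *3mlpa*, and it was listed for the same reason (edgeR interaction FDR = 0.00376). The effects were 1.31 and -0.93 in the fits of each subset. This gene had been listed for stage 3 of *1mlpa* alone, so the same limit holds. All groups held 3 samples or fewer, too few for a test of single libraries that stand apart.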

How the results depend on the processing

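Scaling by library totals alone changed most. It gave 0 calls in *3mlpa* against 3MWT (of 2), 0 effects that differed by stage (of 1) and 2 calls from stage 1 to 2 (20 with TMM, all falls), which were 1 fall and 1 rise that was no call with TMM. From stage 1 to 2 it turned 2 of 4 log2 fold changes of Glyma.01G016700, 4 of 8 of Glyma.09G206100, 2 of 8 of Glyma.11G218500 and 1 of 8 of Glyma.18G038800 above 0. Among those that were calls on either scale were Glyma.09G206100 in 1MWT (0.084) and *1mlpa* (0.032), Glyma.18G038800 in 1MWT (1.34) and Glyma.01G016700 in 3MWT (0.036). DESeq2 gave 4 calls in *1mlpa* against 1MWT (of 2), and fits of 6 libraries gave 1 there and 1 in *3mlpa* against 3MWT. The other settings kept each of these counts within 1.5 times. Refits without 1 library gave 1 to 3 calls in *1mlpa*, 0 to 2 in *3mlpa*, 0 to 1 in *2mlpa*, 0 in the single *mrp* mutants, 0 to 2 effects that differed by stage, 0 to 1 between *1mlpa* and *3mlpa* effects and 0 to 2 ratios within a pair. With the replicate number as a block, the calls were 2 in *1mlpa*, 2 in *3mlpa*, 0 in *2mlpa*, 21 from stage 1 to 2 and 16 from stage 2 to 3. Deviations of same-numbered libraries had r over 0.1 in 7 of 9 pairs in the Mips subset, 1 of 9 in Mips-MRP and 18 of 51 in MRP. The values ran from -0.32 to 0.39, from -0.41 to 0.14 and from -0.34 to 0.59. Replicate numbers were not used to pair samples in the main fits, and whether same-numbered libraries share a structure was not tested further. Leaving out the near-empty library changed no call of the 4 genes. At stage 3 Glyma.18G038800 rested on as few as 11 counts a library, which limits its precision.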
